A study of Mus musculus with 14 samples.

Results

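Levels were compared for 8 genes used as markers of the cells that cover the ovary: Msln, Upk3b, Upk1b, Lrrn4, Krt7, Krt8, Krt18 and Krt19. They were taken by gene symbol from a deposited table of 56748 genes, and each symbol matched 1 gene. Of the 8, 4 encode surface proteins (Msln, Upk3b, Upk1b and Lrrn4) and 4 encode keratins.

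RNA of whole ovaries from female wild-type C57BL/6J mice was sequenced in 14 libraries of 4 groups: DSS day 89 (n = 4), control day 89 (n = 3), DSS day 7 (n = 4) and control day 7 (n = 3). DSS is dextran sulfate sodium, a polymer that injures the lining of the colon and is used to model colitis. According to the series text, the earlier time is the end of the DSS model and the later one follows a rest of 89 days. The labels give no age, dose or number of animals behind a library, so the spread that p-values are set against is that between libraries and may be technical in part.

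The ovary is wrapped in a single layer of epithelium that is continuous with the mesothelium, the sheet lining the body cavity. Both sheets derive from coelomic epithelium, express keratins and mesothelial surface proteins, and the ovarian layer is opened and repaired at each ovulation. Keratins 7 and 8 are type II and keratins 18 and 19 type I proteins, and a filament needs a partner of each type. None of the 8 genes belongs to the surface layer alone, since simple keratins are also made by oviduct and rete epithelium. Of 16 other genes listed for these cells, 15 reached the level set for testing, Calb2 through control libraries only. That level does not place them in the surface layer, since some, such as Wt1 in granulosa cells, are made elsewhere too. In bulk tissue fewer cells of a type and less RNA per cell cannot be told apart.

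Levels are FPKM, fragments per kilobase of gene scaled to a total per library, so genes can be compared per length. Recovered depth was 15256018 to 18505144 reads per library. Mitochondrial transcripts took 9.96% to 14.2% of reads in 3 libraries (DSS day 7 replicate 75, control day 7 replicates 10 and 53) and 0.479% to 4.04% in the other 11. Although the tissue label is ovary, the RNA protocol mentions retinas: of 12 retina markers, 1 (Rom1) passed the filter on low values, the next highest, Sag and Pde6b, had group means of 0.0411 to 0.401 FPKM, and granulosa, luteal and oocyte markers were present in every library. The test covered the 18006 genes with 0.5 FPKM or more in 3 or more libraries, all 8 members among them. Changes are log2 fold changes of FPKM + 1 from limma-trend, which understate the change of low genes, and adjusted p-values (Benjamini-Hochberg) are over all 18006 genes with a threshold of 0.05.

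The clearest pattern was a lower level at day 89 than at day 7, in both treatments. The days are separate sets of libraries, so day cannot be told apart from age or from a batch that differed between days. Fell and rose refer to levels of these groups. In DSS ovaries 6 of the 8 genes were lower at day 89 past the threshold, where 10.7% of all genes tested were, and in control ovaries 7 of the 8 were, where 15.7% of all genes were. No member was higher, where 10.7% of all genes tested were higher in DSS and 16.1% in control. The median change of the 8 genes was -1.25 in DSS and -1.69 in control on the log2 scale, while the median over all genes tested was 0.0045 in DSS and -0.0048 in control. Between DSS and control no member passed the threshold at either day.

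Levels within a group spanned more than an order of magnitude. Krt8 had the highest mean in every group, at 15.3 FPKM in DSS day 89, 13.0 in control day 89, 21.9 in DSS day 7 and 20.4 in control day 7. Krt18 and Krt19 followed in every group, then Upk1b. Lrrn4 had the lowest mean, between 0.390 and 0.656 FPKM. At day 89 the libraries of Krt8 and Krt18 did not overlap in either treatment, while at day 7 they overlapped in both. In DSS day 89, neighbours below Krt8 in this order all overlapped in range, from Krt18 down to Lrrn4.

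**Figure D1:**
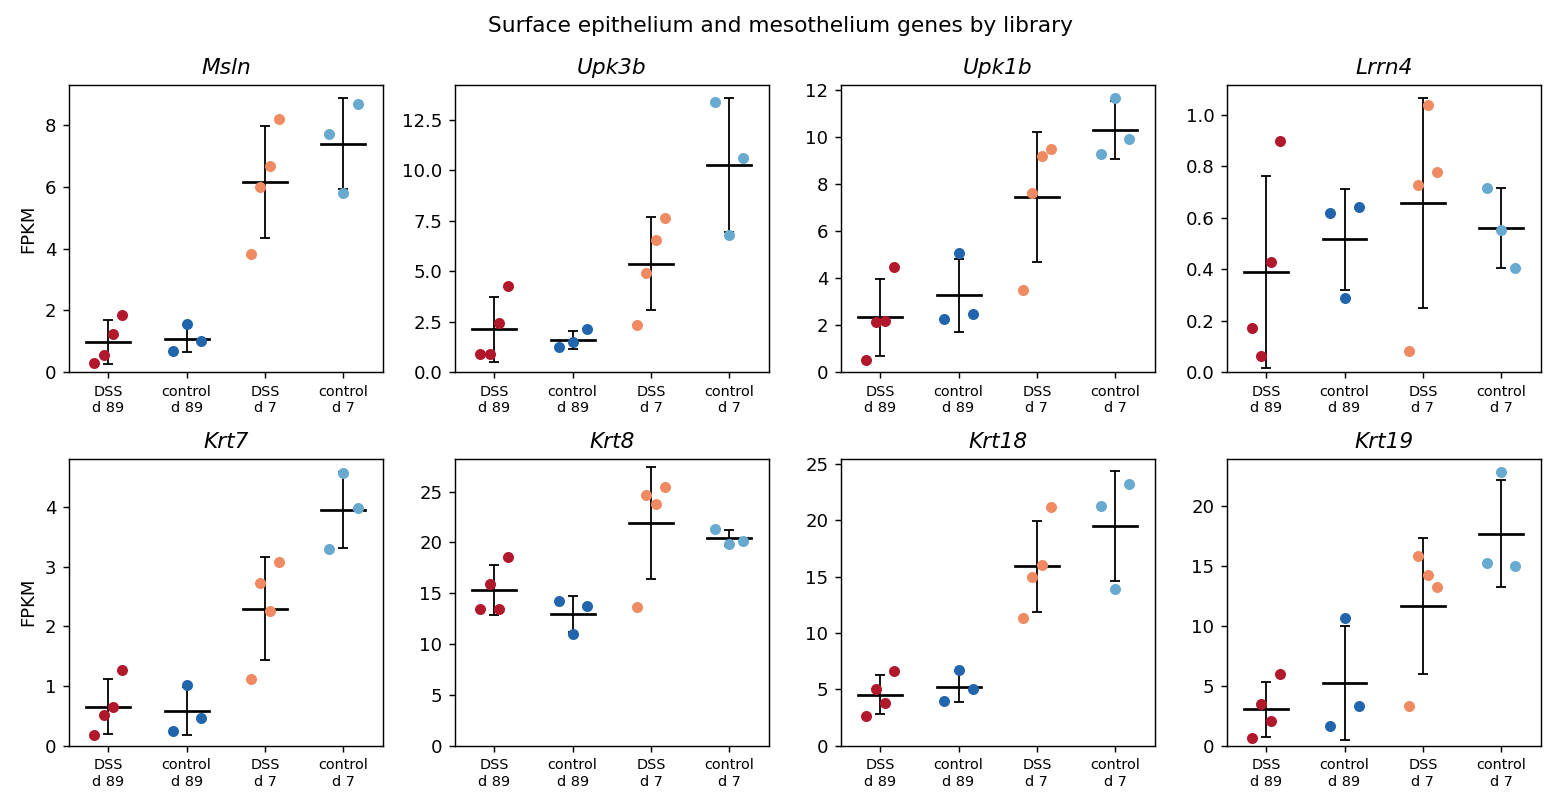
FPKM of the 8 genes (vertical axis, linear from 0) in DSS day 89, control day 89, DSS day 7 and control day 7. Points are libraries, the horizontal line is the group mean and the bar 1 SD. The day 89 libraries of Msln and Krt18 lie below all day 7 libraries, and 1 DSS day 7 library is low in every panel.

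Values per library are given below in the order R29, R38, R78 and R89 for DSS day 89, R123, R124 and R126 for control day 89, 75, 80, 81 and 82 for DSS day 7, and 10, 51 and 53 for control day 7. Msln encodes mesothelin, a glycoprotein anchored to the outer membrane of mesothelial cells (chr17:25748613-25754378, minus strand, GRCm38). It stood at 0.290, 0.544, 1.22 and 1.86 FPKM in DSS day 89, 0.696, 1.56 and 0.996 in control day 89, 3.83, 6.01, 6.67 and 8.21 in DSS day 7, and 7.71, 5.81 and 8.71 in control day 7. Every day 89 library was below every day 7 library, whatever the treatment. Msln fell by 1.89 (SE 0.26, adjusted p = 0.00147) between days in DSS and by 2.02 (SE 0.30, adjusted p = 0.000618) in control. The mean level at day 89 was 15.8% of that at day 7 in DSS and 14.7% in control.

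Upk3b encodes uroplakin 3b, a membrane protein of the uroplakin family that is also a marker of mesothelium (chr5:136038496-136046487, plus strand). It stood at 0.880, 0.879, 2.43 and 4.26 FPKM in DSS day 89, 1.22, 1.47 and 2.11 in control day 89, 2.36, 4.89, 6.56 and 7.66 in DSS day 7, and 13.4, 6.79 and 10.6 in control day 7. The control libraries of the 2 days were far apart, while in DSS the highest day 89 libraries, R78 and R89, overlapped the lowest day 7 library. Upk3b fell by 1.09 (SE 0.35, adjusted p = 0.0430) between days in DSS and by 2.08 (SE 0.41, adjusted p = 0.00244) in control.

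Upk1b encodes uroplakin 1b, a tetraspanin best known from the plaques of the bladder lining (chr16:38773184-38800328, minus strand). It stood at 0.516, 2.15, 2.17 and 4.47 FPKM in DSS day 89, 2.25, 5.05 and 2.48 in control day 89, 3.48, 7.60, 9.18 and 9.48 in DSS day 7, and 9.27, 11.6 and 9.93 in control day 7. Its 3 control day 7 libraries were above all others but DSS day 7 replicate 82, which lay inside their range. Upk1b fell by 1.41 (SE 0.36, adjusted p = 0.0152) between days in DSS and by 1.46 (SE 0.41, adjusted p = 0.0165) in control.

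Lrrn4 encodes a leucine-rich repeat membrane protein also used as a mesothelial marker (chr2:132868305-132880891, minus strand), and it passed the threshold in no comparison. It stood at 0.171, 0.0619, 0.428 and 0.898 FPKM in DSS day 89, 0.618, 0.289 and 0.641 in control day 89, 0.0799, 0.727, 1.04 and 0.778 in DSS day 7, and 0.717, 0.553 and 0.406 in control day 7. All 4 groups overlapped, and the lowest values rested on 4 reads. The change between days was -0.25 (95% interval -0.71 to 0.21, adjusted p = 0.416) in DSS and -0.04 (-0.57 to 0.49, adjusted p = 0.910) in control. A pseudocount of 1 shrinks changes of so low a gene. With 0.01 in its place they were -0.85 in DSS (adjusted p = 0.496) and -0.16 in control (adjusted p = 0.916). The mean level at day 89 was 59.45% of that at day 7 in DSS and 92.3% in control.

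Among the keratins, Krt7 was the least abundant and Krt8 the most. Krt7, Krt8 and Krt18 lie on chromosome 15, Krt8 and Krt18 with 23.7 kb between them and on opposite strands (Krt7 at chr15:101411043-101430313, plus; Krt8 at chr15:101996698-102004482, minus; Krt18 at chr15:102028180-102032027, plus), and Krt19 lies on chromosome 11 (chr11:100140810-100148665, minus). RefSeq windows of 250 bases before the RefSeq start (GRCm38.p6) were matched for 5 members, Upk3b, Lrrn4, Krt7, Krt8 and Krt18. For the keratins that start differs from the GENCODE gene bounds given above. The Krt7 window lies inside the GENCODE gene, and the Krt8 and Krt18 windows overlap theirs. Distances below are to the RefSeq start. The windows of the 3 keratins on chromosome 15 are shown because Krt8 and Krt18, partners in a filament, changed to different degrees, and Krt7 gives a second type II gene beside them. Capitals mark matches on either strand to the motifs named after them.
Krt7 (chr15:101412153-101412402, plus): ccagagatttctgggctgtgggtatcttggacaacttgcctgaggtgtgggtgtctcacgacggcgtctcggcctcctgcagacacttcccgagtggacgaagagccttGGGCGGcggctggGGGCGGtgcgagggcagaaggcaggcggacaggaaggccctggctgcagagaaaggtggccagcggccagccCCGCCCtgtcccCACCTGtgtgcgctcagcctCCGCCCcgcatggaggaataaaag
Krt8 (chr15:102004343-102004592, minus): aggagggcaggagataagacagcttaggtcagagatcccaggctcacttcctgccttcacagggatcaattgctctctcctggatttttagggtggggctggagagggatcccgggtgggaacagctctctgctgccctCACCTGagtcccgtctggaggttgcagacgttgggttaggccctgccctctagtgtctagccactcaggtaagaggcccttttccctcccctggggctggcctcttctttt
Krt18 (chr15:102027966-102028215, plus): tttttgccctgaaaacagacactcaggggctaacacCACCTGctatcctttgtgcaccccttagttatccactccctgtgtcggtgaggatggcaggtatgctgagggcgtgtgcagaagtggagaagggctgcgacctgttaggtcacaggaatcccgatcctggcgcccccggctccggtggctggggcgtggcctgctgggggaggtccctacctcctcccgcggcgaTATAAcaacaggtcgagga
The E-box motif CACCTG was in all 3 windows, ending 39 bases before the start in Krt7, 106 in Krt8 and 209 in Krt18, and in 17.2% of all 32851 RefSeq windows. GGGCGG, the GC box, occurred 4 times in Krt7 alone of the 5 windows, against 32.7% of all windows with at least 1. TATAA occurred in Krt18 alone of the 5, from 19 to 15 bases before the start, against 22.8% of all windows. GGAATG, searched on both strands as well, was in the windows of Upk3b and Lrrn4 and in 12.6% of all. No matches overlapped, and a match describes the letters only. GC content was 66.0% for Krt7, 58.0% for Krt8 and 60.4% for Krt18, against a median of 52.4%.

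Krt7 stood at 0.189, 0.522, 0.643 and 1.28 FPKM in DSS day 89, 0.248, 1.02 and 0.468 in control day 89, 1.12, 2.74, 2.26 and 3.08 in DSS day 7, and 3.30, 4.58 and 3.98 in control day 7. The control day 7 libraries were the highest of all, and only R89 of DSS day 89 reached the lowest DSS day 7 library. Krt7 fell by 0.99 (SE 0.24, adjusted p = 0.0125) between days in DSS and by 1.67 (SE 0.27, adjusted p = 0.00105) in control. It is a low gene, and with a pseudocount of 0.01 in place of 1 these changes were -1.98 in DSS and -2.97 in control. Msln in DSS likewise moved to -2.92 with that pseudocount.

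Krt8 stood at 13.4, 15.9, 13.4 and 18.5 FPKM in DSS day 89, 14.2, 10.98 and 13.8 in control day 89, 13.7, 24.6, 23.8 and 25.5 in DSS day 7, and 21.3, 19.9 and 20.1 in control day 7. The control groups did not overlap, and in DSS only replicate 75 of day 7 came down to the day 89 range. The change between days was -0.46 in DSS (95% interval -0.85 to -0.08, adjusted p = 0.0807). In control Krt8 fell by 0.62 (SE 0.21, adjusted p = 0.0357). A pseudogene, Krt8-ps, is in the table at 0 to 0.471 FPKM, and how reads were split between the copies is not known from the sources used here. The antisense genes Gm671 in Krt7 and Gm36026 in Krt8, at up to 0.462 and 0.192 FPKM, overlap them on the other strand, and whether counting used strand is likewise not known.

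Krt18 stood at 2.60, 5.08, 3.83 and 6.61 FPKM in DSS day 89, 3.96, 6.75 and 5.06 in control day 89, 11.4, 14.999, 16.1 and 21.2 in DSS day 7, and 21.3, 13.9 and 23.2 in control day 7. As for Msln, every day 89 library was below every day 7 library. Krt18 fell by 1.63 (SE 0.25, adjusted p = 0.00175) between days in DSS and by 1.70 (SE 0.29, adjusted p = 0.00114) in control.

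Krt19, the smallest keratin and a marker of simple epithelia, stood at 0.650, 3.47, 2.08 and 6.01 FPKM in DSS day 89, 1.68, 10.6 and 3.36 in control day 89, 3.28, 15.9, 14.3 and 13.2 in DSS day 7, and 15.2, 22.9 and 15.01 in control day 7. It had the largest SE of the 8 genes, with R124 far above the other control day 89 libraries. Krt19 fell by 1.66 (SE 0.53, adjusted p = 0.0399) between days in DSS and by 1.84 (SE 0.61, adjusted p = 0.0348) in control.

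In control ovaries the 2 days did not overlap for the 7 members that fell, against 22.2% of all genes tested that were lower at day 89 without overlap. In DSS ovaries this held for Msln and Krt18 alone, against 12.7% of all genes. Both day comparisons of Msln, Krt7 and Krt18 and the DSS one of Upk1b passed the threshold under all 27 alternative settings. The others did not. Krt8 in control lost its call without any 1 of the 6 control libraries (adjusted p 0.0542 to 0.121), and Krt19 in control without any 1 of them except R124 (0.0636 to 0.140). Upk1b in control lost it without R123 (0.0617) or R126 (0.0573). In DSS, Upk3b lost it without replicate 80, 81, 82, R29, R38 or R78, or control replicate 53, R123, R124 or R126 (0.0510 to 0.126), and Krt19 without 80, 81, 82, R29, R78 or control R126 (0.0511 to 0.121). Without DSS replicate 75, by contrast, Krt8 in DSS passed it, with a change of -0.66 (adjusted p = 0.00777). Without the 3 libraries rich in mitochondrial reads, which leaves 1 control day 7 library whose spread is taken from the other groups, 3 members remained called in control (Msln, Krt7 and Krt18), and the changes of the others were -1.60 for Upk3b, -1.63 for Upk1b, -0.58 for Krt8 and -2.21 for Krt19.

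**Figure D2:**
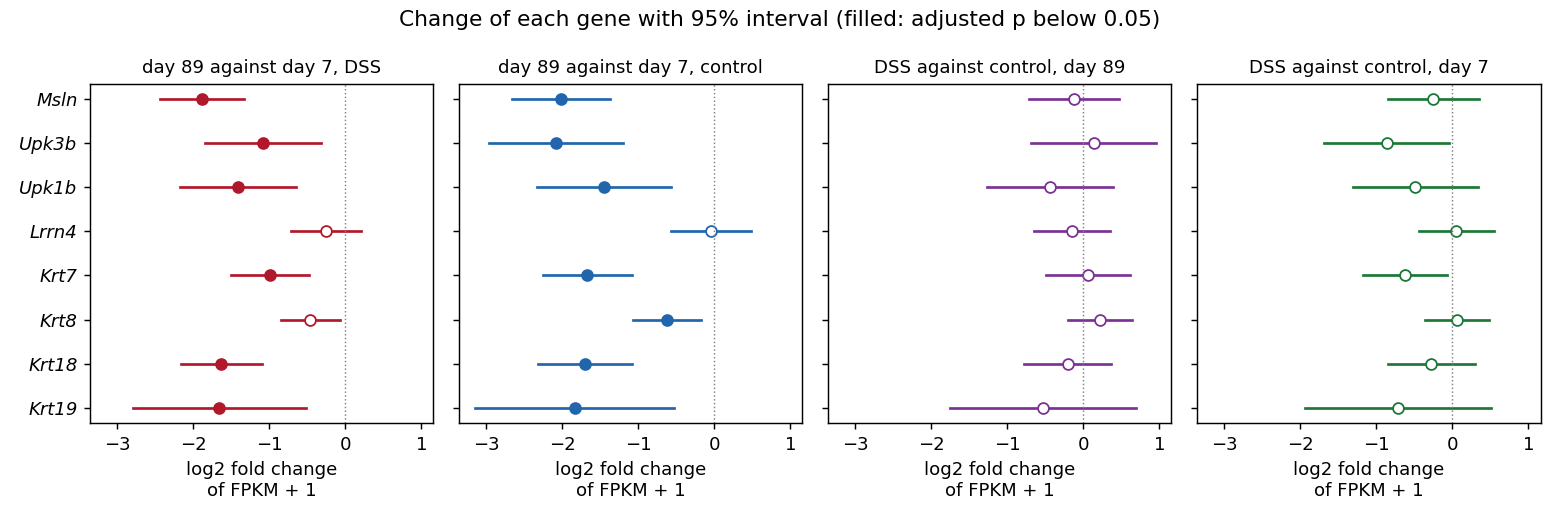
Log2 fold change of FPKM + 1 (horizontal axis) for each gene in 4 comparisons: day 89 against day 7 in DSS and in control, and DSS against control at day 89 and at day 7. Points are estimates, bars 95% intervals, and filled points have an adjusted p below 0.05. The filled points lie left of 0 in both day panels, and both DSS panels hold open points only.

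Krt8 and Krt18 kept close levels at day 7 and unequal levels at day 89. Their FPKM ratio, Krt8 over Krt18, was 5.16, 3.13, 3.498 and 2.80 in DSS day 89, 3.60, 1.63 and 2.73 in control day 89, 1.20, 1.64, 1.48 and 1.20 in DSS day 7, and 1.00, 1.43 and 0.866 in control day 7. No day 89 library overlapped the day 7 libraries of its own treatment, although control R124 lay just below the highest DSS day 7 library. The log2 ratio was higher by 1.37 at day 89 in DSS and by 1.23 in control. With days permuted within treatment, an exact two-sided permutation test over both treatments gave a difference of 1.30 with p = 0.00143 over 1400 arrangements. Within DSS the exact p was 0.0286, and within control 0.1, the smallest that 3 against 3 libraries can give. The ratio was chosen for testing after its values were seen. A ratio of 2 genes in one library is unaffected by scaling of that library, and it shows that their changes were unequal, not which of them moved.

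**Figure D3:**
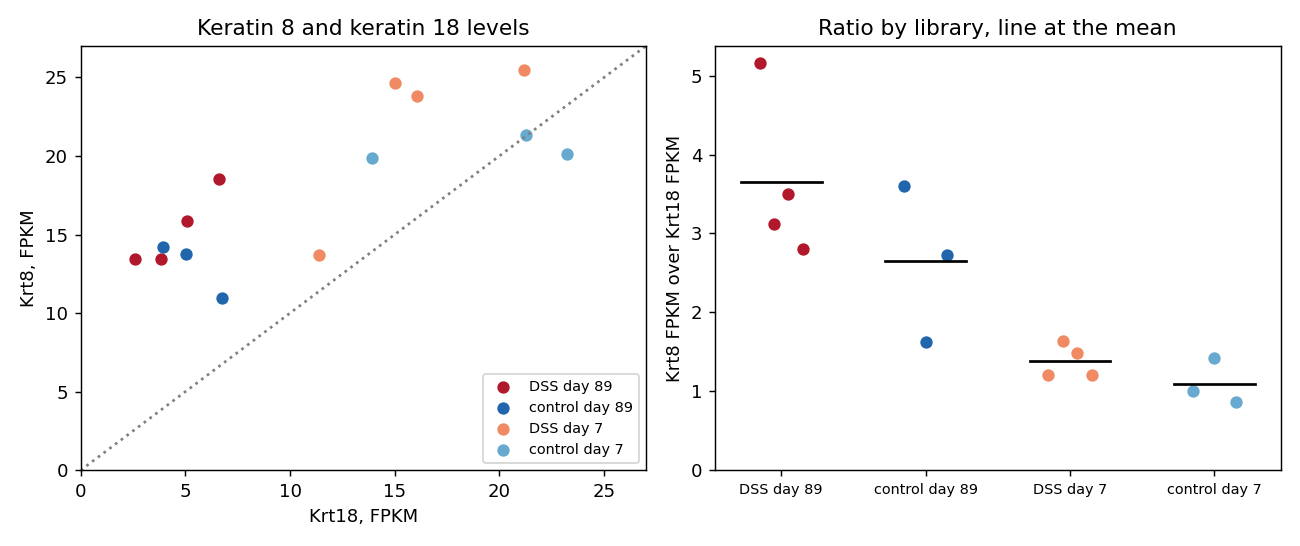
Left, Krt8 against Krt18 in FPKM, 1 point per library, with the line of equal levels. Right, the ratio of Krt8 to Krt18 by group, points for libraries and lines for means. The day 89 libraries lie at 2.60 to 6.75 FPKM of Krt18 and well above the line, with mean ratios of 3.65 in DSS day 89, 2.65 in control day 89, 1.38 in DSS day 7 and 1.10 in control day 7.

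At day 7, no member passed the threshold between DSS and control, where 0.0333% of all genes tested did. This count of 6 genes moved widely when 1 library was left out, up to 1220 genes without DSS replicate 75 and 40 without control replicate 10, but 0 members were called under any of the 27 settings. Of the members 2, Upk3b and Krt7, had an unadjusted p below 0.05, as had 2889 genes in all. Upk3b differed by -0.87 (95% interval -1.69 to -0.05, adjusted p = 0.288) and averaged 5.37 ± 2.31 FPKM in DSS and 10.3 ± 3.32 in control (SD, n = 4 and 3). Krt7 differed by -0.62 (-1.17 to -0.07, adjusted p = 0.265) and averaged 2.30 ± 0.858 FPKM in DSS and 3.96 ± 0.638 in control. Krt7 was the only member whose day 7 groups did not overlap, with all DSS libraries below the controls, against 5.87% of all genes tested (6.24% were higher in DSS without overlap). The other intervals were -1.94 to 0.51 for Krt19, -1.31 to 0.33 for Upk1b, -0.85 to 0.35 for Msln, -0.85 to 0.30 for Krt18, -0.36 to 0.48 for Krt8 and -0.44 to 0.55 for Lrrn4. A lower level by 1 on this scale lay inside the intervals of Upk3b, Upk1b, Krt7 and Krt19. It lay outside the others, but on a scale of FPKM + 1 the same fold of FPKM is smaller for a lower gene. At the mean of Lrrn4 in control day 7, 0.5585 FPKM, a fall by 1 was not possible.

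A high mitochondrial share of reads went with low day 7 values in DSS replicate 75 alone. The log2 level of the 8 genes, each centred on its mean, averaged -0.25 there. In control it averaged 0.90 and 0.89 in replicates 10 and 53, also rich in such reads, and 0.80 in replicate 51. Among the 3 libraries rich in such reads, DSS replicate 75 was below the mean of control replicates 10 and 53 for all 8 genes, by 0.52 (Lrrn4) to 1.95 (Upk3b) on the log2 scale. Among the others, 3 DSS libraries and control replicate 51, the differences were -0.10 for Upk3b, -0.60 for Krt7, -0.63 for Krt19 and -0.38 for Upk1b, and 0.22 for Msln, 0.25 for Lrrn4, 0.30 for Krt8 and 0.29 for Krt18. The part of the mitochondrial share in the day 7 differences was not tested.

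At day 89, no member passed the threshold between DSS and control, where 0.00555% of all genes tested did, 1 gene, and none had an unadjusted p below 0.05, as 824 genes did. The differences ran from -0.53 (95% interval -1.76 to 0.69) for Krt19 to 0.22 (-0.20 to 0.64) for Krt8. The groups overlapped for all 8 genes, where 4.25% of all genes tested were lower in DSS and 4.04% higher without overlap. Upk3b, lower in DSS at day 7 in the estimate, differed here by 0.13 (-0.69 to 0.95), with 2.11 ± 1.61 FPKM in DSS and 1.60 ± 0.458 in control. The difference between the DSS effects of the 2 days was tested directly: 0% of all genes tested passed, with 1521 at an unadjusted p below 0.05, none of them a member. It was 1.00 (-0.16 to 2.16, adjusted p = 0.639) for Upk3b and 0.68 (-0.10 to 1.46, adjusted p = 0.635) for Krt7.

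Within groups other than control day 7, the genes tended to be high or low together. In DSS day 7, replicate 75 was the lowest library for all 8 genes, and in DSS day 89, R89 was the highest for all 8. In DSS day 89, R29 was the lowest for 5 genes, and in control day 89, R123 was the lowest for 6. R124 there was the highest for 5 but the lowest for 2, Krt8 and Lrrn4. Control day 7 was mixed, with replicate 51 the lowest for 4 genes and the highest for 3. Replicate 10 there was the lowest for 2 and the highest for 3, and replicate 53 the lowest for 2 and the highest for 2. The 4 surface protein genes summed to 1.86 FPKM in R29 and 11.5 in R89. The 4 keratins summed to 29.4 FPKM in replicate 75 and to 56.4 to 62.9 in the other DSS day 7 libraries, while the 3 control day 7 libraries lay between 61.1 and 62.3. After removal of group means, the 28 pairs of genes had Pearson r from 0.39 to 0.94 over the 14 libraries, with a median of 0.70. Of the pairs 14 had an adjusted p below 0.05 by permutation within groups (over 28 pairs), and 9 by Spearman's rho. The share among pairs of genes at large is not available here, so whether these counts are unusual is not known. The pairs of Upk1b, Krt7 and Krt19 were the most alike: r was 0.94 (rho 0.94, adjusted p = 0.0118, 0.90 without the 2 libraries farthest from the median) for Upk1b with Krt7, 0.93 for Upk1b with Krt19 and 0.93 for Krt7 with Krt19. Msln with Upk3b followed closely, at r = 0.90 (rho 0.82, adjusted p = 0.0118). Krt8 with Krt18 reached r = 0.52 (rho 0.46, adjusted p = 0.132). Without the 2 farthest libraries of each pair, most often replicate 75 and R29 or R89, the median r was 0.57 and the lowest 0.11. Libraries share their depth and composition, so these values describe the libraries and not a link between the genes.

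**Figure D4:**
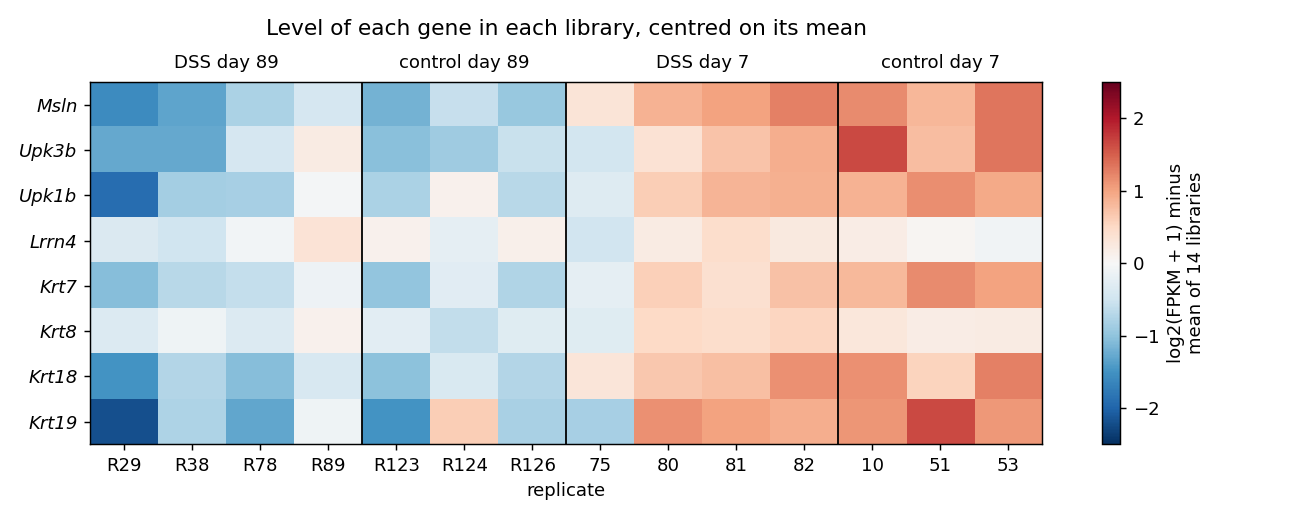
Colour gives log2(FPKM + 1) of each gene (rows) in each library (columns, by group and replicate), centred on the mean of the gene over 14 libraries. Day 89 columns are mostly blue and day 7 columns mostly red, replicate 75 of DSS day 7 is the palest or bluest of its group in every row, and the Lrrn4 row is pale throughout.

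The genes whose group-centred values were closest to the mean of the 4 surface protein genes, among 12495 with a mean of at least 1 FPKM, were Fam13a (r = 0.90), Tdrp and Mcm7 (0.88 each), and Adgra3 and Alas2 (0.88 each). For the mean of the 4 keratins they were Hsd17b2 and Mir196a-1 (0.89 each), Prrt4 and Lhx9 (0.88 each) and Rnf113a1 (0.87), all over the same 14 libraries. Of these 10 genes, Lhx9, a transcription factor of the gonadal surface in development, fell between days in both treatments, by 0.65 (SE 0.17, adjusted p = 0.0181) in DSS and by 0.84 (SE 0.20, adjusted p = 0.00651) in control. Adgra3 rose by 0.49 (SE 0.17, adjusted p = 0.0452) in control, and Mir196a-1 fell by 0.81 (SE 0.29, adjusted p = 0.0490) there. Other genes listed for the surface cells were spread widely in likeness to the surface protein mean. Cldn15 came nearest (r = 0.78, rank 67 of 12495), Wt1 was at 0.41 (rank 2293), Pdpn at 0.22 (rank 4193) and Lgr5 lowest at -0.66.

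Of 16 other genes of surface epithelium and mesothelium, 15 were tested, and Muc16, at 0.379 FPKM or less, was not. Between days 4 fell and 1 rose in DSS, and 5 fell and none rose in control, with median changes of -0.32 in DSS and -0.30 in control. Of all genes tested, 10.7% fell and 10.7% rose in DSS, and 15.7% fell and 16.1% rose in control. These shares apply to the lists below too. Rspo1, a secreted activator of WNT signalling, fell by 1.65 (SE 0.23, adjusted p = 0.00149) in DSS and by 1.27 (SE 0.27, adjusted p = 0.00374) in control. Its mean was 1.76 ± 0.655 FPKM in DSS day 89, 1.46 ± 0.0809 in control day 89, 7.57 ± 1.65 in DSS day 7 and 5.23 ± 2.28 in control day 7. Gpm6a, a membrane glycoprotein found in mesothelium, fell by 1.14 in DSS (adjusted p = 0.0305) and by 1.13 in control (adjusted p = 0.0410), and Slpi, a secreted protease inhibitor, fell by 0.90 in DSS and by 0.72 in control. Slpi, at 0.414 FPKM or less at day 89, reached the level set for testing through day 7 libraries only. The filter itself thus favoured its call as lower at day 89. Bnc1, a transcription factor of mesothelium, fell in DSS by 0.86 and was at -0.50 in control (adjusted p = 0.128). The tight junction gene Cldn15 fell by 1.08 in control and was at -0.71 in DSS (adjusted p = 0.0551), and Pdpn, which encodes podoplanin, fell by 0.88 in control and was at -0.56 in DSS (adjusted p = 0.123). Efemp1, a fibulin of the matrix, rose by 1.495 in DSS (SE 0.33, adjusted p = 0.00845) and was at 0.98 in control (adjusted p = 0.0624). Of the 3 most abundant genes of the list, Aldh1a1 and Aldh1a2 did not pass: Aldh1a1, which makes retinoic acid, averaged 382 FPKM in DSS day 89, 315 in control day 89, 277 in DSS day 7 and 311 in control day 7, and its relative Aldh1a2 averaged 48.1 FPKM in DSS day 89, 60.4 in control day 89, 23.3 in DSS day 7 and 31.6 in control day 7. Wt1, a transcription factor of the surface layer that granulosa cells also express, averaged 11.9 to 13.4 FPKM in the 4 groups. No gene of the list passed between DSS and control at either day.

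Of 26 epithelial adhesion and junction genes, 20 were tested. Between days 5 fell and 2 rose in DSS, and 4 fell and 2 rose in control. The 4 that fell in both were Epcam, an adhesion protein of epithelia (by 1.53 in DSS and 1.66 in control), Cldn3 (1.19 in DSS, 1.15 in control), Cldn4 (0.63 in DSS, 0.69 in control) and Cdh1, which encodes E-cadherin (0.88 in DSS, 0.89 in control). Epcam averaged 1.76 ± 0.950 FPKM in DSS day 89, 2.83 ± 1.65 in control day 89, 7.54 ± 3.92 in DSS day 7 and 10.8 ± 3.82 in control day 7. Esrp1, an epithelial splicing regulator, fell in DSS by 0.91 and was at -0.72 in control (adjusted p = 0.0615). The genes that rose were Tjp1, a scaffold of tight junctions, by 0.74 in DSS and 1.06 in control, Ppl, which encodes periplakin, by 1.18 in DSS, and Dsp, which encodes desmoplakin, by 1.27 in control. Jup, the other gene among the 3 most abundant, averaged 17.1 FPKM in DSS day 89, 17.3 in control day 89, 16.8 in DSS day 7 and 11.5 in control day 7.

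**Figure D5:**
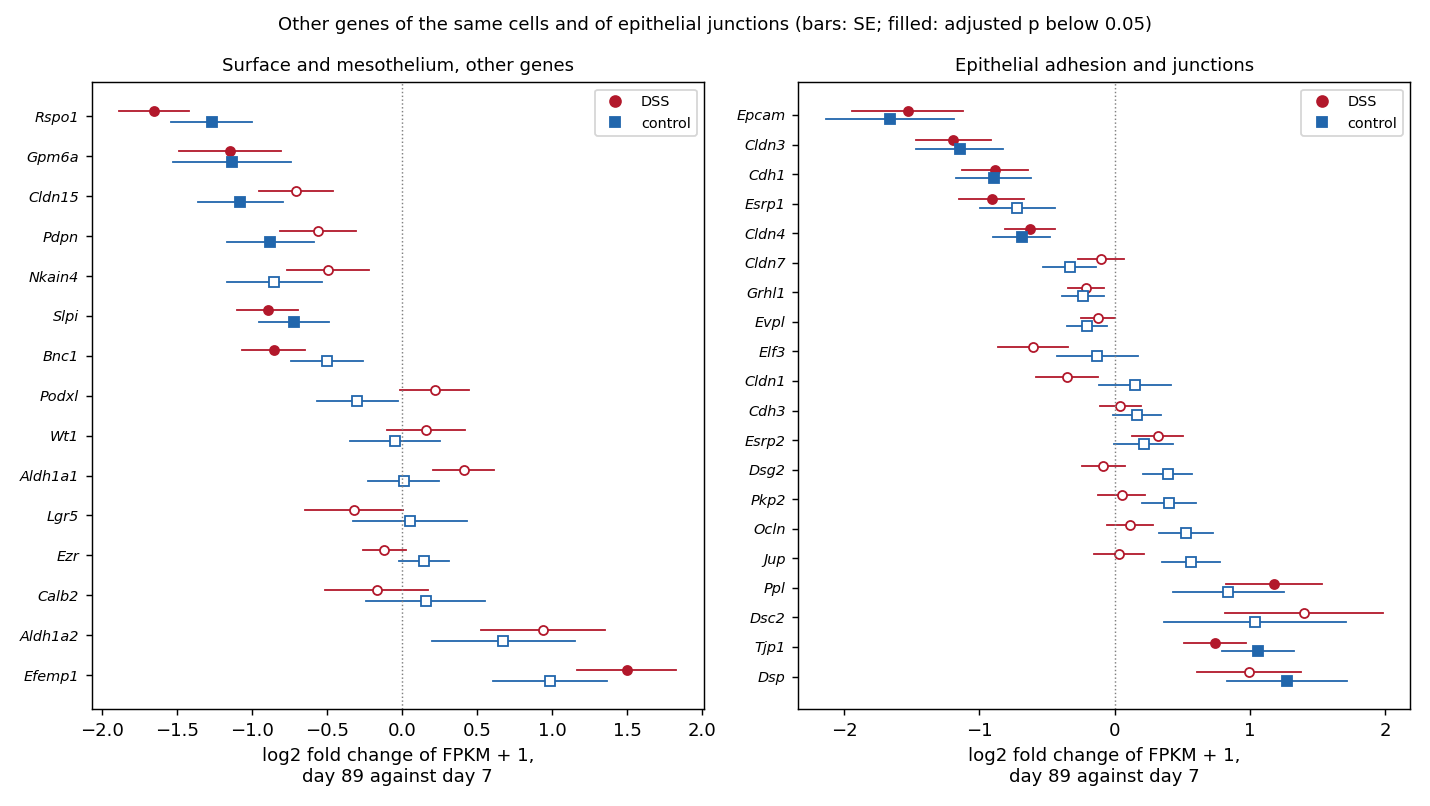
Log2 fold change of FPKM + 1 between day 89 and day 7 (horizontal axis) for the tested genes of 2 lists, circles for DSS and squares for control, bars for the SE, filled where the adjusted p is below 0.05. Rspo1, Gpm6a, Epcam, Cldn3, Cdh1 and Cldn4 lie left of 0 with filled marks in both treatments, and Efemp1, Tjp1, Dsp and Ppl lie to the right.

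Few other keratins were expressed: of 21, 15 stayed below 0.5 FPKM in every library, 5 of them at 0, and 4 were tested. Krt20, Krt12 and Krt10 fell between days in DSS, by 1.59, 0.91 and 0.64, and Krt12 in control, by 0.57, and Krt79 did not pass. Krt12, at 0.165 FPKM or less at day 89, reached the level set for testing through day 7 libraries only, which favoured its calls. None approached Krt8, since the highest group mean among them was 4.67 FPKM, for Krt20 in DSS day 7. Of 4 other uroplakins 2 were tested, Upk1a and Upk3a, with group means of 0.392 to 0.730 and 0.0869 to 0.394 FPKM, and neither passed in any comparison, and Upk3bl was not tested. Of 5 genes for proteins that link keratins to junctions, 4 were tested: Ppl rose in DSS, and Plec, which encodes plectin, rose by 1.17 in control (SE 0.17, adjusted p = 0.000537), as did Dsp.

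Other epithelia that make simple keratins were examined by their own markers. Of 12 oviduct genes 8 were tested, with Tekt1 lower at day 89 in DSS (by 0.87) and Dynlrb2 (1.21), Rsph1 (1.18), Cfap126 (1.04) and Tekt1 (0.65) lower in control, and Sox17 and Tppp3 not past the threshold. All of those that fell are genes of motile cilia. Dynlrb2, at 0.207 FPKM or less at day 89, reached the level set for testing through day 7 libraries only, which favoured its call. The summed level of the 12 genes ran from 14.5 to 22.6 FPKM in DSS day 89, 11.2 to 27.3 in control day 89, 22.4 to 38.7 in DSS day 7 and 30.4 to 35.3 in control day 7. Pax8, a defining gene of oviduct secretory cells and rete ovarii, was at 0.141 FPKM or less in every library. Of 7 rete genes 2 were tested, Emx2, which fell by 0.78 in control, and Igfbp5, and the summed level, most of it Igfbp5, ran from 38.8 to 60.3 FPKM in DSS day 89, 48.7 to 58.1 in control day 89, 29.8 to 58.6 in DSS day 7 and 41.2 to 44.4 in control day 7. Their part in the lower levels of the 8 genes at day 89 was not tested.

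Genes of other cell types also passed the threshold between days, where 10.7% of all genes tested were lower and 10.7% higher in DSS. In control 15.7% were lower and 16.1% higher. Oocyte markers fell, 10 of 10 in DSS and 5 of 10 in control (Gdf9, Oosp1, Ooep, Figla and Sohlh1 in both, Zp1, Zp2, Zp3, Bmp15 and Nlrp5 in DSS), with summed levels of 56.2 to 166 FPKM in DSS day 89, 32.4 to 133 in control day 89, 288 to 461 in DSS day 7 and 140 to 259 in control day 7. Of 10 luteal markers 6 rose in DSS (Star, Cyp11a1, Hsd3b1, Lhcgr, Prlr and Scarb1) and none passed in control, with summed levels of 3636 to 6099 FPKM in DSS day 89, 4607 to 5734 in control day 89, 2172 to 3340 in DSS day 7 and 2870 to 3623 in control day 7. Of 10 stromal and theca genes 3 rose in each treatment (Pdgfra and Col3a1 in both, Star in DSS and Col1a1 in control), and their summed level ran from 609 to 932 FPKM in DSS day 89, 646 to 1172 in control day 89, 248 to 380 in DSS day 7 and 319 to 575 in control day 7. Of 10 granulosa genes Inhba rose and Amhr2 fell in DSS and Foxl2 fell in control, which is not above the shares of all genes. Of 10 macrophage genes Cd68, Csf1r and Lyz2 rose in both treatments and Adgre1 in control, with summed levels of 524 to 1030.0 FPKM in DSS day 89, 342 to 639 in control day 89, 442 to 601 in DSS day 7 and 249 to 323 in control day 7. Of 8 smooth muscle genes, Myh11 rose and Cnn1 and Des fell in control, and among erythrocyte genes Hba-a2, whose reads may be split with its near copy Hba-a1, fell in both treatments. The summed level of the 8 erythrocyte genes ran from 44.7 to 657 FPKM in DSS day 89, 42.9 to 45.8 in control day 89, 412 to 730.0 in DSS day 7 and 50.3 to 311 in control day 7. Of 10 adipocyte genes 4 were tested and Cfd rose in DSS. The part of cell makeup in the changes of the 8 genes was not tested.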

How the data were processed

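Values in the deposited table are FPKM, 1 column per library, beside a length for every gene. The labels' protocols name a TruSeq kit and total RNA, and the submitters' processing notes name HISAT2 2.0.5 and GRCm38. The counter, annotation release and strand setting were not given in the sources used. FPKM times gene length was a whole multiple of 1 unit per library (100% of values under 300 units, tolerance 0.01), which gave the reads behind each value. The total implied by that unit was 0.852 to 0.935 times the recovered reads in the 3 libraries rich in mitochondrial reads. In the other 11 it was 0.995 to 1.07 times. The deposited FPKM thus held a factor per library beside recovered depth, whose source was not given. How far it corrects for composition was not tested. A count test was foreseen for a table of counts, and because the table held FPKM, log2(FPKM + 1) was fitted with limma 3.58.1 (trend) in R 4.3.3, with 1 mean per group over 14 libraries, and the procedure was checked on simulated data. Positions come from GENCODE M21 by gene ID, and none of the 8 equals the deposited position. The 8 genes and the comparison lists were chosen with earlier results of these data known. All 8 genes are named with every library, of each list the genes past the threshold or, failing any, the 3 most abundant, and the 5 genes most like each class by Pearson r. Muc16, Wt1, Pax8, Calb2 and abundant genes that did not pass were added outside this rule. Alternatives were pseudocount, filter, scaling, voom on recovered reads, groups in the fit, prior variance, libraries rich in mitochondrial reads, a gene length trend and each library left out. The result of 1 gene of the erythrocyte list is not reported here.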

Additional observations from a re-analysis of the deposited data

Results flagged for a closer look

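In DSS day 7, Krt8 stood at 13.7 FPKM in replicate 75, while the nearest of the other 3 libraries was at 23.8 FPKM. The gap took 0.862 of the range of the group, above the critical value of 0.829 for 4 libraries. Of 16 groups of 4 libraries examined this way (8 genes in the 2 DSS groups) this was the 1 that passed, and chance passes about 1 in 20. The same library had 14.2% mitochondrial reads, the highest share of the 14, and its part in the low Krt8 level was not tested.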

How the results depend on the processing

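No paired analysis was possible because replicate numbers do not recur between groups. The count test foreseen for a table of counts was not run on the recovered reads, and voom was run on them as an alternative setting. The filter of 1 FPKM in 7 libraries leaves Lrrn4 untested. Of the 27 settings, the length trend was added after the data were seen. The count of members called kept within 1.5 times of its value in all of them for DSS against control at both days (0), for the change of the DSS effect (0) and for the days in DSS (4 to 7). For the days in control it was 3 without the libraries rich in mitochondrial reads and 4 to 7 with 1 library left out, 4 without R123 or R126. Krt8 and Krt19 lost their control calls and Upk3b and Krt19 their DSS calls also when no filter was used and after scaling to nuclear-encoded genes, a scaling that moved the median of all genes by 0.15 in DSS and 0.23 in control. Under it Krt8 in control was at -0.31 (adjusted p = 0.361), and Lrrn4 in control changed sign to 0.074, below the median of 0.22 for all genes. With the length trend removed Krt8 in control was at -0.35 (adjusted p = 0.251). The signs of uncalled differences were not stable. At day 7 the DSS difference of Lrrn4 was -0.057 with a pseudocount of 0.1, -0.20 with 0.01, -0.070 with voom and -0.12 with a mitochondrial term, under which Krt8 was at -0.11. Without the libraries rich in mitochondrial reads Msln was at 0.22 and Krt18 at 0.29. With 1 library left out, day 7 DSS differences ran from -0.059 to 0.25 for Lrrn4 and -0.024 to 0.26 for Krt8, day 89 ones from -0.32 to 0.059 for Msln, -0.17 to 0.33 for Upk3b, -0.11 to 0.25 for Krt7 and -1.004 to 0.056 for Krt19, and the control day difference of Lrrn4 from -0.12 to 0.069. The cause was not tested. Over all genes, calls ranged from 0 to 1220 for DSS at day 7, 0 to 5 at day 89, 3141 to 6583 for days in control, 2043 to 4941 for days in DSS and 0 to 41 for the change of the DSS effect. The Krt8 to Krt18 difference ran from 1.07 to 1.46 over 15 alternatives. Lrrn4, at 4 to 73 reads per library, is limited most by depth.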

Other observations

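Calb2, which encodes calretinin, a marker of mesothelium, was singled out after its values were seen. It was listed at 0 in 3 of the 4 DSS day 89 libraries and at 0.0325 FPKM in R89, against 0, 2.52 and 2.24 FPKM in control day 89. At day 7 it stood at 0.213, 0, 0 and 0.362 FPKM in DSS replicates 75, 80, 81 and 82, against 0.229, 1.46 and 1.73 in control replicates 10, 51 and 53. The DSS differences were -1.16 (SE 0.37, adjusted p = 0.923) at day 89 and -0.83 (SE 0.37, adjusted p = 0.291) at day 7, and neither passed the threshold. At day 7 the DSS range overlapped the lowest control library, and at day 89 control R123 was at 0 as well.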
